A study of Mus musculus with 21 samples.

Results

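Knockdown of Hdac1 in SMB21 cells, a mouse cell line of sonic hedgehog (SHH) medulloblastoma, was compared with a control hairpin. The comparison took the 3 libraries labelled shHdac1 and the 3 labelled shLuc, 6 of the 21 samples of the series. All 6 came from SMB21 cells given a virus that codes for a short hairpin RNA (shRNA) and then selected with puromycin. The hairpin of shHdac1 targets Hdac1, and that of shLuc targets luciferase, a gene mouse cells lack. The sources used here do not give the time from infection to RNA isolation, the hairpin sequences or the number of hairpins per gene. No label names separate cultures behind the 3 libraries of each group, so the p-values measure library-to-library spread that may be technical. For comparison, 3 libraries labelled shHdac2 received a hairpin against Hdac2 in the same way. A further 12 libraries came from cells given quisinostat (JNJ) or its solvent DMSO for 2 or 24 h, for which no virus is named.

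HDAC1 is a class I histone deacetylase. It removes acetyl groups from histone tails within the NuRD, SIN3 and CoREST co-repressor complexes, where its close relative HDAC2 can take its place. SHH medulloblastoma arises from granule neuron progenitors of the cerebellum, which divide under hedgehog signalling and depend on the proneural factor ATOH1. Cells that leave this state turn on genes of migrating and then of mature neurons.

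The 6 libraries held 23094799 to 31907047 counted reads each, and at that depth 3 counts, the floor used here per library, equal 0.0938 to 0.126 CPM, the usual measure of counts scaled to the library's total. Floors cover counting error only. Of the 24047 genes in the table, 13612 passed the filter on low counts and were tested with edgeR in 1 fit of the 9 shRNA libraries. Replicate 3 stood apart in both groups. Within shLuc, 0.705% of tested genes differed at least 2-fold between replicates 1 and 2, against 16.3% between 1 and 3 and 16.1% between 2 and 3. Within shHdac1 these shares were 0.83%, 7.79% and 7.73%. The chi-square of the counts per gene was 3.92 and 4.67 for replicates 1 and 2 of each group, where sampling noise alone gives about 1, so no pair of libraries was merged. Effects are therefore also given for each replicate number, as the log2 ratio of shHdac1 to shLuc replicate of that number.

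The libraries carried the markers of their labelled origin. Zic1, a transcription factor gene of cerebellar granule cells, had 664, 629.9 and 703 CPM in shLuc replicates 1 to 3 and 576, 606 and 495 in shHdac1. Barhl1, another marker of that lineage, had 55.1, 50.7 and 68.7 and 37.3, 33 and 28.2 CPM. Of 27 markers of immune, vessel, fibroblast, epithelial and blood cells, 10 passed the filter, and their summed level over all 27 was 7.32 to 29.3 CPM in shLuc and 10.5 to 15.5 in shHdac1. The haemoglobin genes Hba-a1 and Hbb-b1, the microglial gene C1qa and the endothelial gene Cldn5 had no count in any of the 6. Other members were present. The endothelial gene Cdh5 had 110, 119 and 22 counts in shLuc and 52, 36 and 75 in shHdac1. The collagen gene Col3a1 had 214, 196 and 34 counts and 178, 175 and 39. Of 23 glial markers 16 passed the filter. Their summed level was 1730, 1700 and 2410 CPM in shLuc and 1780, 1820 and 3140 in shHdac1, highest in replicate 3 of both groups. The myelin gene Mog had no count in any library, while the myelin gene Mbp had 5, 10 and 564 counts in shLuc and 47, 33 and 374 in shHdac1. No glial or non-neural marker was called in the knockdown. With the replicate number as a block, Olig1 was called higher (adjusted p = 0.0071) and Pdgfra lower (adjusted p = 0.00557), both genes of oligodendrocyte precursors. The levels of these markers are given as measured, and their part in the results was not tested.

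Hdac1 RNA was low in every library of its hairpin. Its level was 88.8, 94.8 and 100.5 CPM in shLuc replicates 1, 2 and 3 and 32.6, 28.6 and 30.5 in shHdac1, so that all 3 knockdown libraries lay well below all 3 controls. The mean fell from 94.7 ± 5.86 to 30.6 ± 1.99 CPM (SD, n = 3 per group), which is 3.1-fold lower (log2 change -1.63, SE 0.09, adjusted p = 0.000165). The log2 ratio was -1.45, -1.73 and -1.72 at replicate numbers 1, 2 and 3. With the Hdac2 hairpin Hdac1 had 99.2, 102 and 108 CPM and was not called against shLuc (log2 change 0.12, adjusted p = 0.533).

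The other class I deacetylase genes were not called. Hdac2 had 309, 301 and 344 CPM in shLuc and 325, 336 and 302 in shHdac1, and the ranges overlap (log2 change 0.01, adjusted p = 0.977). Hdac3, the catalytic subunit of NCoR complexes, had 137, 136 and 144 against 129, 125 and 133 CPM, slightly lower in all 3 knockdown libraries (log2 change -0.11, adjusted p = 0.588). Hdac8, which acts on cohesin, had 20.2, 20.6 and 17.7 against 24.7, 25.2 and 26.3 CPM. All 3 knockdown libraries were above all 3 controls for Hdac8, but the change was not called (log2 change 0.38, SE 0.11, adjusted p = 0.181). DESeq2 did call it (adjusted p = 0.0376), as did the fit without replicate 3 of all groups (adjusted p = 0.0188). That last fit, on replicates 1 and 2 alone, called 21.6% of all tested genes higher and 22.5% lower.

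**Figure D1:**
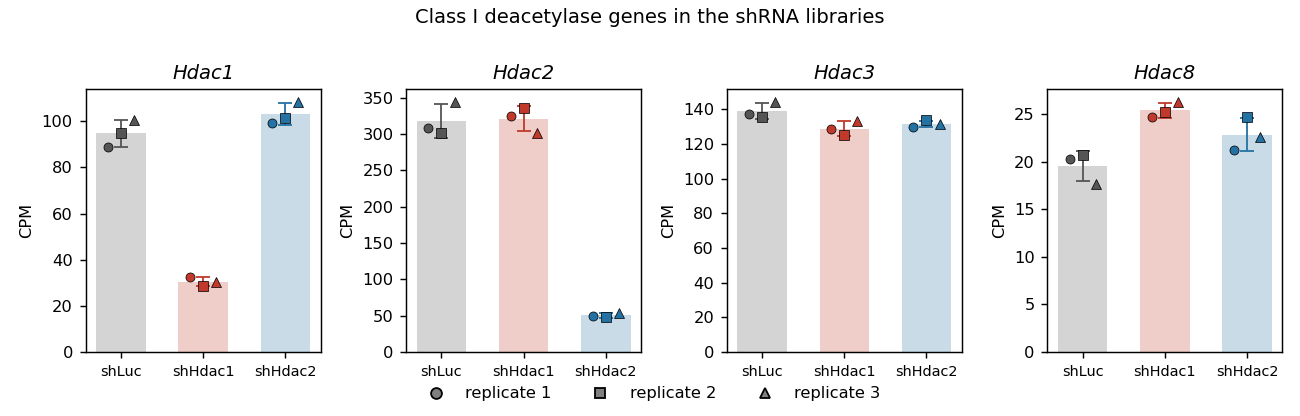
CPM of the 4 class I deacetylase genes in the 9 shRNA libraries, each panel with its own axis from 0. Bars are means, error bars SD over 3 libraries and symbols the replicate numbers. Hdac1 is low in shHdac1 only (28.6 to 32.6 CPM) and Hdac2 in shHdac2 only.

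Across all genes the knockdown called 21 genes higher (0.154% of those tested) and 81 lower (0.595%) at a Benjamini-Hochberg adjusted p under 0.05. At an unadjusted p under 0.05 there were 1687. Changes were moderate, with a median log2 change of 0.77 in the genes that rose and -0.93 in those that fell, and 5 and 30 of them changed at least 2-fold. All 102 called genes had groups that did not overlap and the same sign at all 3 replicate numbers. Over all tested genes the groups did not overlap in 8.42% with shHdac1 higher and in 8.29% with shHdac1 lower.

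The number of calls moved with the replicates used. By the correlation of their deviations from group means, libraries of shLuc and shHdac1 with the same number deviated together (0.305, 0.245 and 0.352). Replicates 1 and 2 did so across numbers as well. The correlation was 0.322 for shLuc replicate 2 with shHdac1 replicate 1, and 0.25 for shLuc replicate 1 with shHdac1 replicate 2. These values part replicate 3 from the other replicates and do not show pairing by number. A fit with the number as a replicate block called 153 genes higher (1.12%) and 370 lower (2.72%), among them all 102. Without replicate 3 of the 3 shRNA groups, 2961 were higher (21.6%) and 3084 lower (22.5%), again with all 102 among them. Leaving out 1 library left 1 higher and 5 lower without shLuc replicate 1, 1 and 7 without shLuc replicate 2, and 602 and 910 without shLuc replicate 3. The counts were 4 and 6 without shHdac1 replicate 1, 0 and 2 without shHdac1 replicate 2, and 3 and 27 without shHdac1 replicate 3. Hdac1 and Tmem164 were the 2 genes called in all 6 of these fits, and Cpne2, Cpne9, Acly and Cadm3 were called in 5, all but the fit without shHdac1 replicate 2. No named gene that was called changed its direction in any of the 6. A fit of the 2 groups alone, without the shHdac2 libraries, called 1 gene higher and 4 lower. Acly, Cadm3 and Cpne9 were not called there (adjusted p = 0.0549 for each). With the block added to that fit, no gene was called.

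Across genes, the effects at replicate number 3 did not follow those at numbers 1 and 2. At least 2-fold higher were 78 genes at number 1, 94 at number 2 and 1147 at number 3. At least 2-fold lower were 816, 824 and 248. Over all tested genes, which are not independent replicates, the effects at numbers 1 and 2 had a Pearson correlation of 0.798, while those at number 3 had -0.0575 with number 1 and -0.0517 with number 2. The called genes were alike at all 3 numbers, with medians of 0.69, 0.77 and 0.99 for those that rose and -0.93, -0.88 and -0.80 for those that fell, which the call itself favours. Of all tested genes 17.2% were higher at all 3 numbers and 16.5% lower at all 3.

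**Figure D2:**
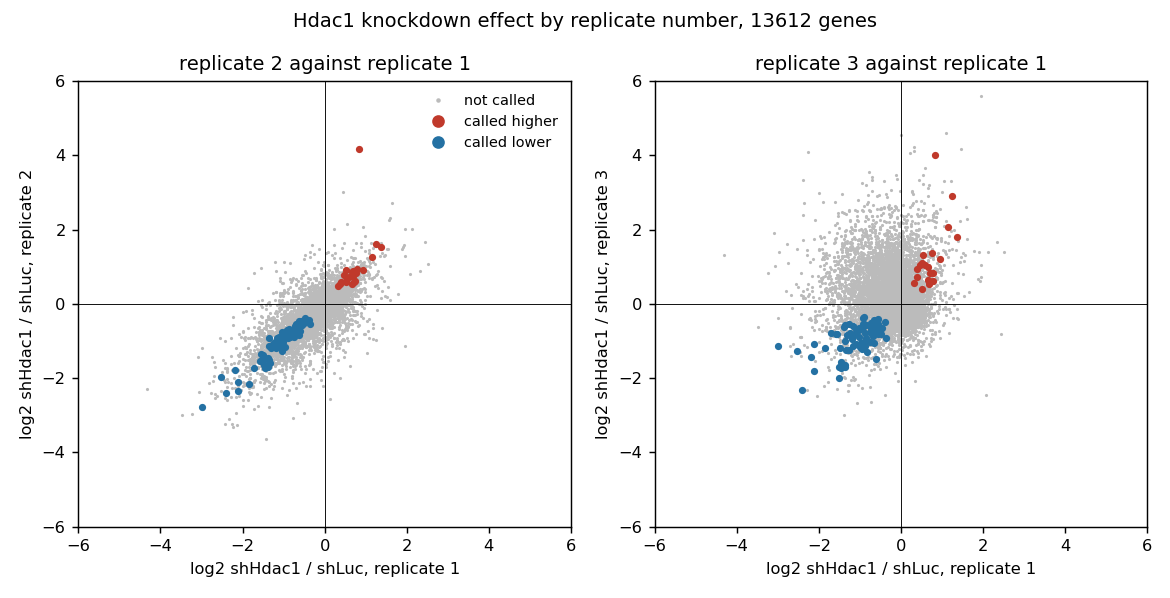
Log2 ratio of shHdac1 to shLuc for each tested gene, replicate 2 against replicate 1 (left) and replicate 3 against replicate 1 (right). Grey points are uncalled genes, red and blue points genes called higher and lower. The grey cloud follows the diagonal on the left (r = 0.798) and shows no slope on the right (r = -0.0575), while the called genes keep their side in both.

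Besides Hdac1 and Cpne9, the falls called in at least 5 of the 6 fits without 1 library were in Tmem164, Acly and Cadm3, named after their values were seen. Tmem164, a membrane protein gene whose human product makes ether phospholipids, had 87.4, 82.6 and 98.2 CPM in shLuc and 43.7, 44.3 and 43.5 in shHdac1. All 3 knockdown libraries lay within 1 CPM of each other and far under the controls (log2 change -1.03, SE 0.08, adjusted p = 0.00285). Acly encodes ATP-citrate lyase, which makes the cytosolic acetyl-CoA used for lipid synthesis and for histone acetylation. Its level was 661, 660.5 and 674 CPM in shLuc and 402, 406 and 390.1 in shHdac1, with narrow ranges that did not meet (log2 change -0.74, SE 0.07, adjusted p = 0.0048). Cadm3, a neural cell adhesion gene, had 114, 111 and 129 against 63, 61.8 and 67.7 CPM (log2 change -0.88, SE 0.09, adjusted p = 0.00538). Without shHdac1 replicate 2 the adjusted p was 0.0621 for Acly and 0.0677 for Cadm3.

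The hairpins differed in Tmem164 and Acly. Over all genes, shHdac1 was higher than shHdac2 in 0.889% of tested genes and lower in 1.17% by the direct test, and shHdac2 against shLuc called 0.654% higher and 1.03% lower. Both use libraries of the Hdac1 comparison, so the values are set side by side only. Tmem164 had 105, 103 and 107 CPM with the Hdac2 hairpin, and the direct difference of shHdac1 from shHdac2 was called (log2 -1.26, SE 0.08, adjusted p = 0.000322). Acly had 654, 687 and 654 CPM there and was again called lower with shHdac1 (log2 difference -0.74, SE 0.07, adjusted p = 0.00202). Cadm3 had 70.7, 71.3 and 76.6 CPM with the Hdac2 hairpin, also under the controls, and the direct difference was not called (log2 -0.18, SE 0.08, adjusted p = 0.373).

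The promoters of Tmem164 and Acly are shown as those of genes that fell with the Hdac1 hairpin against both shLuc and shHdac2. Hdac1 itself is not in the promoter table used. They are RefSeq sequences of 300 bases around the start site on GRCm38.p6, 5′ to 3′ on the gene's strand. Capitals mark GGGCGG or its reverse complement CCGCCC, the GC box bound by SP factors. Genes and motif were chosen after the values were seen. Tmem164 lies at chrX:142681476-142681775 on the plus strand and holds 3 matches, and Acly at chr11:100527951-100528250 on the minus strand holds 4.
Tmem164: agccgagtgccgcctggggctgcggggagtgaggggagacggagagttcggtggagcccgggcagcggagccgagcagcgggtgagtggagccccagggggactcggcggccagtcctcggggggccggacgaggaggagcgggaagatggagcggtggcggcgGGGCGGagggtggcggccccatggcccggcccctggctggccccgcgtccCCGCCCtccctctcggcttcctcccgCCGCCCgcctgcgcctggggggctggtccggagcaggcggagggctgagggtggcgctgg
Acly: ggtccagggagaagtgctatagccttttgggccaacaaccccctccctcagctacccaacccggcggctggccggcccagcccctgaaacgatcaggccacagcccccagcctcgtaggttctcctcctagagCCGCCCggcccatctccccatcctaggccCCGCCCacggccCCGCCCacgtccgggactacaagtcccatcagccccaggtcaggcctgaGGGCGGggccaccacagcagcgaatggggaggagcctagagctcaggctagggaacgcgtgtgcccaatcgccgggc
The GC box was in the promoters of 46 of the 60 genes called lower that had an entry (76.7%) and of 14 of 18 called higher (77.8%). It was in 65.9% of the 10162 tested genes with an entry and in 35.9% of all promoters of the table. These are matches of letters and say nothing of binding.

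**Figure D3:**
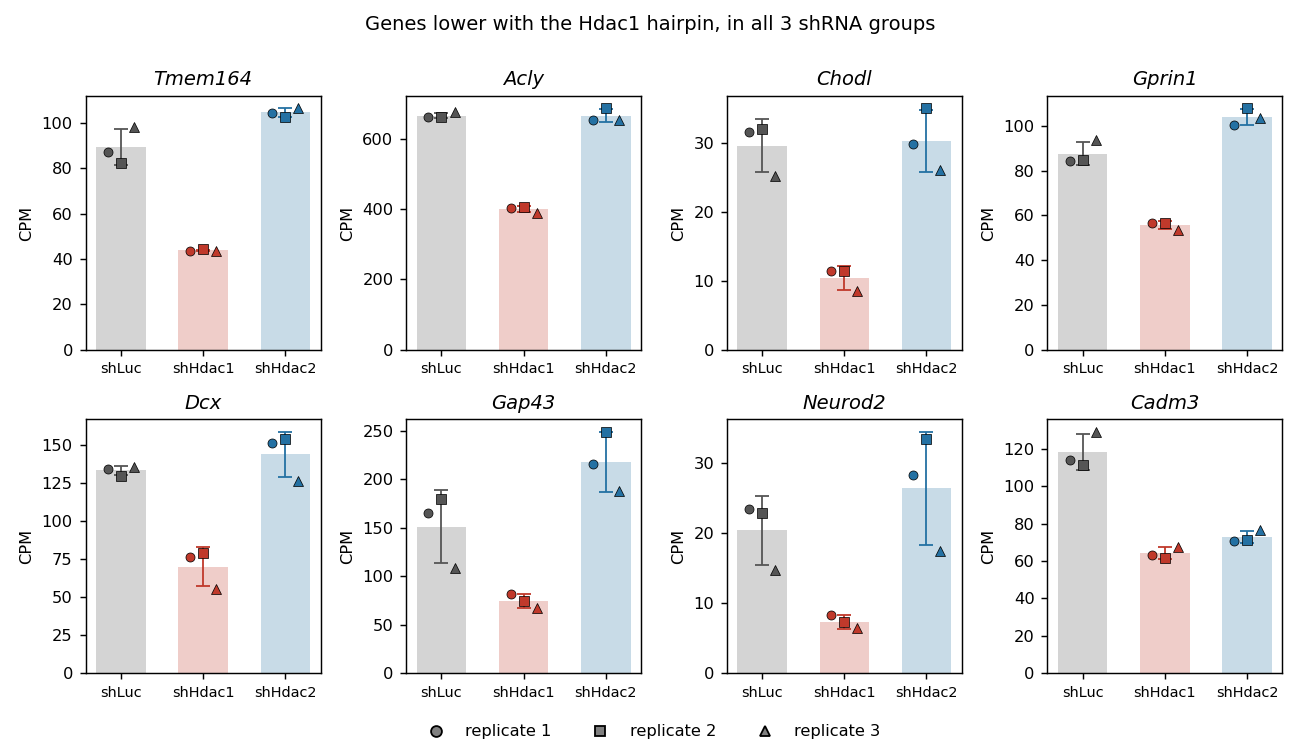
CPM of 8 genes called lower with the Hdac1 hairpin, in the 9 shRNA libraries, each panel with its own axis from 0. Bars are means, error bars SD over 3 libraries and symbols the replicate numbers. The 8 were picked by no rule from the 81 genes called lower. The direct difference between the hairpins was called in 7 of the 8, with shHdac1 lower, and Cadm3 is low with both. Over all tested genes the direct test called 1.17% lower with shHdac1. That share is no fair base for the 7 of 8. The 81 genes were called for low values in the same shHdac1 libraries, which favours this difference in advance. Many others of the 81 had no call for the direct difference, among them Rhbdl3, Itga7, Zic4, Dll1, Dll3, Robo2 and Unc5a, which are not shown.

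Dcx, Gap43 and Neurod2, genes of young and migrating neurons, fell with the Hdac1 hairpin and were lower there than with the Hdac2 hairpin. Dcx, the microtubule protein of migrating neurons, had 135, 130.1 and 136 CPM in shLuc and 76.5, 78.8 and 55.2 in shHdac1, the lowest in replicate 3 (log2 change -0.93, SE 0.14, adjusted p = 0.0267). Gap43, a growth cone protein gene, had 165, 179 and 109 against 81.2, 74.4 and 67.5 CPM (log2 change -1.02, SE 0.18, adjusted p = 0.0484). Neurod2, a transcription factor gene of differentiating neurons, had 23.4, 22.9 and 14.7 against 8.35, 7.23 and 6.39 CPM and fell by most of the 3 (log2 change -1.47, SE 0.27, adjusted p = 0.0484). In each the groups did not overlap. Under the Hdac2 hairpin Dcx had 151, 154 and 127, Gap43 215, 249 and 188 and Neurod2 28.2, 33.3 and 17.4 CPM. The direct log2 difference of shHdac1 from shHdac2 was -1.04 for Dcx (adjusted p = 0.00894), -1.55 for Gap43 (0.00596) and -1.85 for Neurod2 (0.0122).

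Of 37 tested genes of neuronal differentiation and synapse, 2 fell, Dcx and Gap43, none rose and 35 were not called. The median log2 change was -0.36, against 0.00 over all tested genes. At all 3 numbers 19 members were lower and 1 higher (16.5% and 17.2% of all tested genes). In 9 all knockdown libraries were below all controls and in 1 above (8.29% and 8.42% of all tested genes). The list's mean log2 CPM was 4.75, 4.74 and 4.02 in shLuc and 4.21, 4.26 and 3.82 in shHdac1, so control replicate 3 lay under knockdown replicates 1 and 2. With the replicate block 11 members were called lower (2.72% of all tested genes). They include Tubb3, the neuronal beta-tubulin gene, at 99.6, 97.5 and 79.8 against 64.2, 63 and 47.4 CPM, where the unblocked call was missed (log2 change -0.67, adjusted p = 0.113, block 0.00681). Syt4, a vesicle protein gene, had 34.2, 36.5 and 15.5 against 15.2, 16.3 and 3.95 CPM, with overlapping ranges and replicate 3 lowest in both groups (adjusted p = 0.416, block 0.0071). Tubb3 and Syt4 were chosen after their values were seen. Without replicate 3 of the groups 23 members were lower, in a fit that called 22.5% of all tested genes lower.

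No target of REST, the repressor that recruits HDAC1 and HDAC2 through CoREST and SIN3, was called higher. Of 25 tested, 1 fell and none rose, which left 24 without a call, and the list had a median log2 change of -0.43 and medians of -0.60, -0.51 and -0.22 at numbers 1, 2 and 3. The member that fell was Mapk8ip1, the gene of the JNK scaffold JIP1, at 197, 189.9 and 178 CPM in shLuc and 122, 121 and 112 in shHdac1 (log2 change -0.67, SE 0.08, adjusted p = 0.0121). Its 3 knockdown libraries were all under the controls, and under the Hdac2 libraries at 174, 179.8 and 160.5 CPM (direct log2 difference -0.54, adjusted p = 0.0123). Lower at all 3 numbers were 17 of the 25 and higher at all 3 none (16.5% and 17.2% of all tested genes). In 5 all knockdown libraries were below all controls (8.29% of all tested genes). The list's mean log2 CPM was 4.66, 4.61 and 3.66 in shLuc and 4.04, 4.08 and 3.40 in shHdac1, so control replicate 3 lay under knockdown replicates 1 and 2. The block called 8 lower and none higher (2.72% and 1.12% of all tested genes). Without replicate 3 of the groups 18 were lower, where 22.5% of all tested genes were.

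Leaving out 1 library ended the calls of Dcx, Gap43, Neurod2 and Mapk8ip1 in most fits. Dcx and Mapk8ip1 were still called without shLuc replicate 3 and without shHdac1 replicate 3, and Gap43 and Neurod2 without shLuc replicate 3 alone. The adjusted p in the fits that lost a call was 0.0755 to 0.209. In bulk RNA, fewer cells of a kind and less RNA per cell cannot be told apart.

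In the granule lineage Zic4 and Neurod2 fell. Zic4, a cerebellar zinc finger factor gene, had 68, 67.8 and 80.5 CPM in shLuc and 46.5, 45.7 and 47.7 in shHdac1 (log2 change -0.63, SE 0.10, adjusted p = 0.0311). The knockdown libraries of Zic4 lay close together under all controls, and those of shHdac2 were near them at 49.96, 46.5 and 54.5 CPM (direct adjusted p = 0.702). Of 21 tested members 2 fell, Zic4 and Neurod2, none rose and 19 were not called, with a median log2 change of -0.41. In 12 members all knockdown libraries were below all controls, and in 1 above (8.29% and 8.42% of all tested genes). The block called 7 lower (2.72% of all tested genes).

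Atoh1, the factor that keeps progenitors dividing, is the member most tied to the tumour. It had 326, 315 and 227 CPM in shLuc and 188, 177 and 110.3 in shHdac1, so that the groups did not overlap, and replicate 3 was lowest in each. The change was not called (log2 change -0.87, SE 0.21, adjusted p = 0.112). It was called with the block (0.0127), by DESeq2 (0.00363), without shLuc replicate 3 (0.0222) and without replicate 3 of all groups (1.63e-06). That last fit called 22.5% of all tested genes lower. The log2 ratio of Atoh1 was -0.80, -0.84 and -1.04 at the 3 numbers. It was as low with the Hdac2 hairpin, at 143, 164 and 136 CPM, and not called there against shLuc (log2 change -0.97, adjusted p = 0.0592). The direct difference between the hairpins was not called for Atoh1 (log2 0.10, adjusted p = 0.891). Barhl1 was close to the threshold (log2 change -0.82, SE 0.15, adjusted p = 0.0517, block 0.0379). Zic1 was not called (log2 change -0.25, adjusted p = 0.343).

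Of the Notch pathway, by which neighbouring progenitors restrain each other's differentiation, the ligand genes Dll1 and Dll3 fell. Dll1, an activating ligand gene, had 17.9, 16.6 and 15.5 CPM in shLuc and 9.67, 8.74 and 7.63 in shHdac1 (log2 change -0.94, SE 0.14, adjusted p = 0.0309). Dll3, a ligand gene whose product acts inside the cell that makes it, had 118, 112 and 108 against 52.5, 52.5 and 72 CPM (log2 change -0.94, SE 0.15, adjusted p = 0.0324). The groups did not overlap in either gene. They were the 2 called of 16 Notch pathway genes, the other 14 were not called, and the list's median log2 change was -0.04. That median was -0.48, -0.16 and 0.42 at numbers 1, 2 and 3. Hes5, a target gene of the pathway, had 35.4, 33.1 and 37.9 against 14.1, 14.5 and 21.5 CPM and was not called (adjusted p = 0.1), but it was with the block (0.0109). The direct difference between the hairpins was called in none of the 3, with log2 differences of -0.03 for Dll1, -0.25 for Dll3 and 0.02 for Hes5 and adjusted p from 0.525 to 0.982. The calls of Zic4, Dll1 and Dll3 were lost in 4 or 5 of the 6 fits without 1 library (adjusted p 0.073 to 0.168).

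Above a mean level of 5 CPM, the falls were largest in Cpne9 and Rhbdl3. Cpne9, of the copine family of calcium-dependent membrane-binding proteins, had 9.13, 9.49 and 9.97 CPM in shLuc and 2.06, 2.14 and 2.81 in shHdac1 (log2 change -2.02, SE 0.19, adjusted p = 0.0048). It was intermediate with the Hdac2 hairpin, at 4.42, 4.64 and 4.61 CPM, and lower with shHdac1 by the direct test (log2 -0.96, adjusted p = 0.0348). Rhbdl3, of the rhomboid family, had 30.1, 29.4 and 21.2 against 6.88, 5.72 and 10.01 CPM (log2 change -1.83, SE 0.24, adjusted p = 0.0157). Chodl, a membrane lectin gene, had 31.6, 32.1 and 25.2 against 11.4, 11.4 and 8.47 CPM (log2 change -1.50, SE 0.17, adjusted p = 0.012) and 29.8, 35 and 26 with the Hdac2 hairpin, which put all 3 shHdac1 libraries far below both other groups (direct log2 -1.54, adjusted p = 0.00552).

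Itga7, a laminin receptor gene, had 111, 103 and 59.7 CPM in shLuc and 34, 31.2 and 34.5 in shHdac1 (log2 change -1.46, SE 0.22, adjusted p = 0.0277). Its control replicate 3 was low, and the Hdac2 libraries were also low, at 35, 25.1 and 29.9 CPM (direct adjusted p = 0.845). Itga7 was the 1 member called of 31 matrix and integrin genes, of which 30 were not called (median log2 change -0.38). The list's median was -0.73, -0.47 and 0.56 at numbers 1, 2 and 3, so its sign turned at number 3. Olfm1, a secreted neuronal protein gene, had 200.4, 196 and 111 against 67, 67.8 and 63 CPM (log2 change -1.36, SE 0.22, adjusted p = 0.0324). Dusp14, a gene of a phosphatase that acts on MAP kinases, had 45.1, 43.1 and 35.4 against 17.6, 19.5 and 11.3 CPM (log2 change -1.35, SE 0.25, adjusted p = 0.0484). The other genes named by rule were Slc2a4, the glucose transporter GLUT4 (log2 change -1.30), the adhesion receptor gene Bai1 (-1.24), the synapse organiser gene Cbln4 (-1.20) and the calcium channel subunit gene Cacna2d3 (-1.15), with adjusted p from 0.0124 to 0.033. Where these genes, Chodl, Rhbdl3, Itga7, Olfm1 and Dusp14 lost their call without 1 library, the adjusted p was 0.0622 to 0.194.

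A further 6 of the 81 are given as examples, chosen after their values were seen and from no list. Plxnb2, a semaphorin receptor gene, had 515, 498 and 540.3 CPM in shLuc and 311, 328 and 347 in shHdac1 (log2 change -0.65, SE 0.10, adjusted p = 0.0259) and 541, 595 and 478 with the Hdac2 hairpin (direct adjusted p = 0.00905). Robo2, a slit receptor gene, had 129, 129 and 117 against 81.9, 84 and 87 CPM (log2 change -0.57, SE 0.09, adjusted p = 0.033), Unc5a, a netrin receptor gene, 41.6, 38.5 and 45.1 against 22.7, 24.1 and 26.2 (log2 change -0.78, SE 0.12, adjusted p = 0.0324). Alcam, an adhesion gene of growing axons, had 53.4, 48.1 and 52.6 against 21.3, 21.2 and 29.6 CPM (log2 change -1.09, SE 0.14, adjusted p = 0.0157). Adcyap1r1, the receptor gene for PACAP, a peptide that opposes hedgehog signalling in granule progenitors, fell from 374 ± 55.4 to 217 ± 4.78 CPM (log2 change -0.78, SE 0.10, adjusted p = 0.0157). Trp73, of the p53 family, fell from 6.08 ± 0.446 to 1.72 ± 0.34 CPM (log2 change -1.82, SE 0.22, adjusted p = 0.0124). Besides Plxnb2, the direct difference from shHdac2 was called for Trp73 (adjusted p = 0.0141). For Robo2, Unc5a, Alcam and Adcyap1r1 it was not called (adjusted p = 0.915, 0.139, 0.051 and 0.71). Robo2 (log2 change -0.53, adjusted p = 0.0297) and Adcyap1r1 (-0.67, 0.0195) were called lower against shLuc with the Hdac2 hairpin as well. All 6 genes lost their call in the knockdown without shLuc replicates 1 or 2 (adjusted p 0.0558 to 0.182 over the fits that lost 1).

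Among the 21 genes that rose, Cpne2, another copine gene, was the firmest. It had 71.2, 68.5 and 67.2 CPM in shLuc and 121, 121 and 119 in shHdac1, with no overlap and almost no spread within groups (log2 change 0.80, SE 0.07, adjusted p = 0.00436). The Hdac2 libraries lay between, at 90.8, 89.6 and 98.1 CPM, and the direct difference was called (log2 0.37, adjusted p = 0.029). Tet1, which encodes an enzyme that oxidises methylated cytosine and was chosen after its values were seen, had 38, 35.2 and 46.6 against 61.4, 64.9 and 67.6 CPM (log2 change 0.69, SE 0.12, adjusted p = 0.0367). With the Hdac2 hairpin Tet1 had 38.8, 42.4 and 36.6 CPM, near the controls (direct log2 0.72, adjusted p = 0.0184).

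For other named genes that rose, no direct difference between the hairpins was called. Slc7a7, an amino acid transporter gene, had 3.49, 3.05 and 2.06 CPM in shLuc and 8.41, 9.41 and 16 in shHdac1, highest in replicate 3 (log2 change 1.98, SE 0.31, adjusted p = 0.0324). Axin2, the feedback inhibitor and usual target of Wnt signalling, had 37.4, 35 and 45.5 against 64.1, 67.2 and 70.1 CPM (log2 change 0.77, SE 0.11, adjusted p = 0.022). Synpo, an actin-associated protein gene, had 50.8, 51.2 and 44.6 against 76.6, 85 and 91.6 CPM (log2 change 0.79, SE 0.10, adjusted p = 0.015). Their direct differences from shHdac2 were not called (log2 0.34, 0.28 and 0.06, adjusted p = 0.702, 0.257 and 0.85). The remaining genes of the rule were Dcpp1 (log2 change 1.54), the phosphoglucomutase gene Pgm2 (1.05), the matrix protease gene Adamts9 (0.93), the focal adhesion gene Lpp (0.77), the Rab regulator gene Tbc1d8b (0.75) and Csrnp3 (0.72), with adjusted p from 0.017 to 0.043. Dcpp1 has close paralogs, so its value is uncertain. The largest rise of all was in Mir6236, outside the rule, at 49.6, 31.9 and 42.6 CPM in shLuc and 88.6, 581 and 691 in shHdac1, where replicate 1 lay far under the other two (log2 change 3.45, SE 0.62, adjusted p = 0.0484). Fits without 1 library that lost the calls of these genes gave adjusted p of 0.0558 to 0.213, with all of them called without shLuc replicate 3.

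Pgk1 and Pgam1 rose, and over the glycolysis and hypoxia genes the ratio to shLuc was widest at replicate number 3. Pgk1, which encodes the enzyme of the first ATP-yielding step of glycolysis, had 268, 288 and 192 CPM in shLuc and 451, 439 and 490.3 in shHdac1 (log2 change 0.89, SE 0.14, adjusted p = 0.0324). Pgam1, the phosphoglycerate mutase gene of the next step, had 89.1, 95.1 and 84.2 against 142, 137 and 167 CPM (log2 change 0.74, SE 0.10, adjusted p = 0.022). All knockdown libraries were above all controls in both. These were the 2 that rose of 24 tested glycolysis and hypoxia genes, none fell and 22 were not called. Reads of both genes may be shared with related genes or pseudogenes, and how such reads were counted is not given in the sources used here.

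The glycolysis list had a median log2 change of 0.64, against 0.00 over all tested genes. Of the 24, 17 had no overlap with the knockdown higher (8.42% of all tested genes). The median was 0.34 and 0.40 at numbers 1 and 2 and 1.41 at number 3. The mean log2 CPM of the list was 6.71, 6.70 and 5.78 in shLuc, so that control replicate 3 was lowest, and 7.07, 7.00 and 7.29 in shHdac1. Ldha, the lactate dehydrogenase gene, had 1313, 1442 and 1067 against 2055, 2040 and 1806 CPM (log2 change 0.63, adjusted p = 0.0573, block 0.0109). Slc2a1, the glucose transporter GLUT1 gene, had 57.2, 59.6 and 38 against 94, 90.8 and 91.7 CPM (log2 change 0.84, adjusted p = 0.096, block 0.0199). Pdk1, a mitochondrial kinase gene induced by low oxygen, had 115, 116 and 46.3 against 196, 188 and 234 CPM and was not called by either (log2 change 1.16, adjusted p = 0.128, block 0.0852). The block called 9 members higher and none lower (1.12% and 2.72% of all tested genes). Without replicate 3 of the groups 15 were higher and 2 lower, where 21.6% and 22.5% of all tested genes were. With the Hdac2 hairpin Pgk1 had 471, 504 and 497 CPM and Pgam1 136, 153 and 162 (direct log2 difference -0.09 and -0.01, adjusted p = 0.845 and 0.978). Over the list, the median log2 change from shLuc with that hairpin was 0.76. There 8 members were called higher (0.654% of all tested genes) and none lower. No member was called by the direct test between the hairpins (median log2 difference -0.01). Pgk1 and Pgam1 lost their calls in all fits without 1 library but that without shLuc replicate 3 (adjusted p 0.0558 to 0.132). Ldha, Slc2a1 and Pdk1 were chosen after their values were seen.

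**Figure D4:**
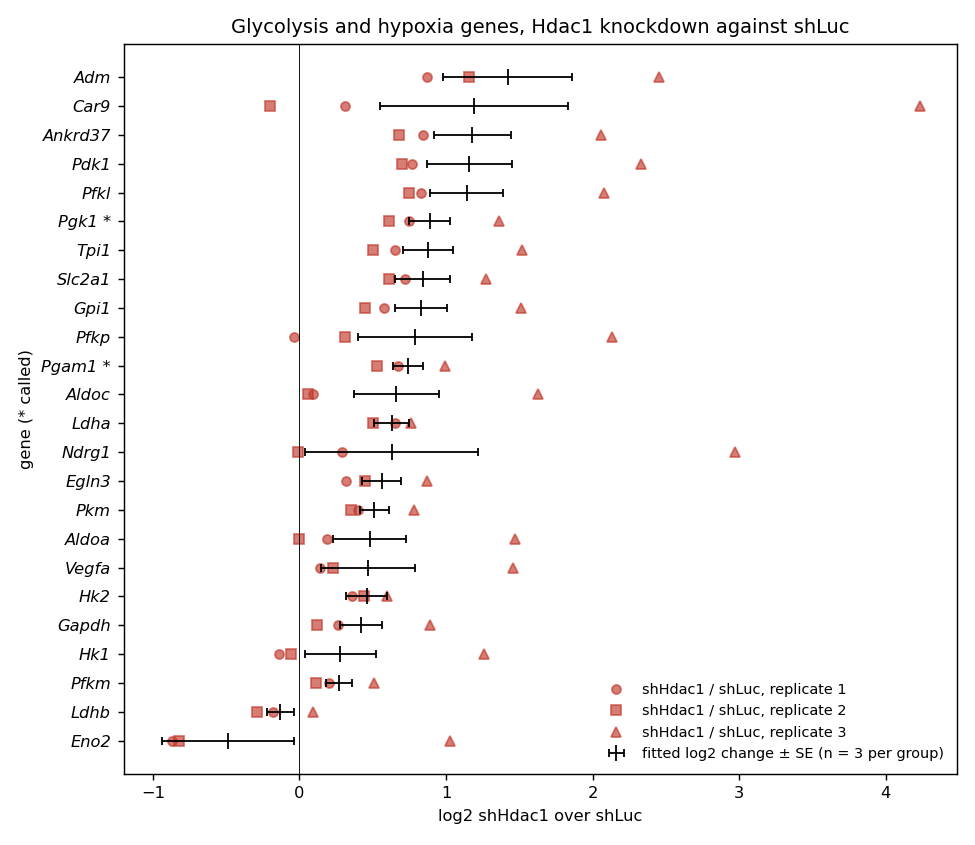
Log2 ratio of shHdac1 to shLuc for the 24 tested glycolysis and hypoxia genes. Red symbols are the 3 replicate numbers, black ticks the fitted log2 change with its SE (n = 3 per group), and stars mark called genes. Triangles (replicate 3) lie farthest right in all genes, with the list's median at 1.41 there against 0.34 and 0.40.

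The promoters of Pgk1 and Pgam1 are shown since they are the called members of the list. Capitals mark ACGTG or its reverse complement CACGT, the core of the element that hypoxia-inducible factors bind. Both are RefSeq sequences of 300 bases on GRCm38.p6, chosen with the motif after the values were seen. Pgk1 lies at chrX:106186850-106187149 on the plus strand with 2 matches, and Pgam1 at chr19:41911621-41911920 on the plus strand with 1.
Pgk1: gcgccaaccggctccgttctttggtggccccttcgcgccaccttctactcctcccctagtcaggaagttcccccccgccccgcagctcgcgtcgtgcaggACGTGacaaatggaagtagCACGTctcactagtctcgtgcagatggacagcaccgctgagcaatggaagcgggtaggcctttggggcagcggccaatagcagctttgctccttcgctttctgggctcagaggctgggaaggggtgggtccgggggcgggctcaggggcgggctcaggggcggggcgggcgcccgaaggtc
Pgam1: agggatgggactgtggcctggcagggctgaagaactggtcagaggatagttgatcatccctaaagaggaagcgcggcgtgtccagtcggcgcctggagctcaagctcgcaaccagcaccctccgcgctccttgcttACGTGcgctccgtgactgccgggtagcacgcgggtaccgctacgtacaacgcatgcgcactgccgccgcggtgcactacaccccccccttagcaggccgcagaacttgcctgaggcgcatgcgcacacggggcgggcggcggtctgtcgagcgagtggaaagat
The motif was in 11 of 23 promoters of the list that had an entry (47.8%), in 25.8% of tested genes with an entry and in 19.7% of all promoters of the table. A match is not a site in use.

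Hedgehog target genes were not called in the knockdown. Gli1, the usual readout of the pathway, had 193, 168 and 198 CPM in shLuc and 190.4, 190.1 and 203 in shHdac1, and the groups overlapped (log2 change 0.06, SE 0.11, adjusted p = 0.898). Ptch1, the hedgehog receptor and target gene, had 112, 104 and 147 against 128, 139 and 308 CPM, with a high replicate 3 in the knockdown (log2 change 0.67, SE 0.39, adjusted p = 0.574). Replicate 3 was also high for Hhip, whose product binds hedgehog ligands, at 96, 92.8 and 158 against 102, 109.8 and 237 CPM (log2 change 0.37, adjusted p = 0.807). Without shHdac1 replicate 3 the log2 change was 0.14 for Ptch1 and -0.13 for Hhip. Without replicate 3 of all groups Ptch1 was called higher (0.30, adjusted p = 0.0153) and Hhip was not called (0.16, adjusted p = 0.14). That fit called 21.6% of all tested genes higher. Mycn was lower in all 3 knockdown libraries, at 69.2, 67 and 73.5 against 47.6, 47.2 and 62.5 CPM, and was not called (log2 change -0.42, adjusted p = 0.308). It was called lower with the block (0.0471) and without replicate 3 of the groups (4.21e-05), where 22.5% of all tested genes were lower. Ccnd1, the cyclin D1 gene, had 1054, 1039 and 1144 against 983, 969.8 and 758 CPM (log2 change -0.26, adjusted p = 0.383). Of 13 targets none was called (median log2 change -0.26) and 2 were lower with the block, Atoh1 and Mycn. The targets' median was -0.10, 0.01 and -0.02 at numbers 1, 2 and 3. Of 24 pathway components none was called (median 0.03), and the block called the co-receptor genes Gas1 and Cdon higher. Over all tested genes the block called 1.12% higher and 2.72% lower.

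Cell cycle genes were not called either. None of 36 G1/S and replication genes (median log2 change 0.06) or 35 G2/M genes (0.04) passed the test. The G1/S median was 0.27 and 0.20 at numbers 1 and 2 and -0.29 at number 3. Cdkn1a, the p21 inhibitor gene that deacetylase inhibitors are known to induce, was lower in the knockdown, at 153, 159 and 111 CPM in shLuc and 89.2, 94.2 and 96.7 in shHdac1, with no overlap and no call (log2 change -0.59, SE 0.18, adjusted p = 0.193). It was called lower by DESeq2 (0.0416), without shLuc replicate 3 (0.0271) and without replicate 3 of all groups (1.08e-05). That last fit called 22.5% of all tested genes lower. With the Hdac2 hairpin Cdkn1a had 69, 56.3 and 88.4 CPM and was called lower against shLuc (log2 change -0.99, adjusted p = 0.0325). Its direct difference between the hairpins was not called (log2 0.39, adjusted p = 0.358). H1f0 encodes a linker histone and is another gene that deacetylase inhibitors induce. It had 667, 697 and 507 against 628, 643 and 669 CPM (log2 change 0.05, adjusted p = 0.926, and -0.08 without shLuc replicate 3). Myc had 42.8, 42.7 and 53.3 against 53, 54.9 and 52.9 CPM (log2 change 0.21, adjusted p = 0.505). It was called higher without shLuc replicate 3 (0.0488) and without replicate 3 of all groups (0.00464). That last fit called 21.6% of all tested genes higher.

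No change was called in the partners of HDAC1. None of 39 co-repressor subunit genes was called, with a median log2 change of 0.00. Mta1, a NuRD subunit gene, was called lower with the block, at 258, 263 and 319.6 CPM in shLuc and 205, 206 and 206 in shHdac1 (log2 change -0.45, SE 0.10, adjusted p = 0.0933, block 0.0259). Of 15 acetyltransferase and BET reader genes 1 fell and 14 were not called (median 0.01). That gene was Ncoa1, a nuclear receptor co-activator, at 55.6, 52 and 66.4 against 37.2, 38.2 and 41.4 CPM (log2 change -0.58, SE 0.10, adjusted p = 0.0474), lower than with the Hdac2 hairpin as well (direct log2 -0.51, adjusted p = 0.0418). Its call was lost in all fits without 1 library but that without shLuc replicate 3 (0.0795 to 0.215).

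The remaining lists held few calls. Of 28 genes of the ATF4 and unfolded protein response 1 fell, Dnajb9, an endoplasmic reticulum chaperone gene, at 29.7, 34 and 31 against 19.1, 19.1 and 20.6 CPM (log2 change -0.69, SE 0.12, adjusted p = 0.043), and 27 were not called (median log2 change -0.20). Without 1 library, Dnajb9 was called only in the fit without shLuc replicate 3 (adjusted p 0.083 to 0.209 in the others). No member was called among 25 interferon-stimulated genes (median 0.66), 17 MHC class I genes (0.21), 30 immediate-early genes (0.10), 24 cholesterol synthesis genes (0.00), 23 pro-apoptotic genes (0.04), 22 p53 targets (-0.08), 6 inhibitors of cyclin-dependent kinases (0.00) or 25 recombination and checkpoint genes (0.13). Nor was any among 23 polycomb subunits (0.05), 6 class II and IV deacetylases (-0.20), 21 ribosome biogenesis genes (0.08), 19 BMP and TGF-beta genes (-0.09), 16 glial markers (0.11) and 10 non-neural markers (-0.70). The interferon median was 0.18 and -0.04 at numbers 1 and 2 and 1.23 at number 3, and the glial median -0.24, -0.23 and 0.47. At the same numbers the non-neural median was -1.06, -0.98 and 0.15, and the MHC class I median -0.16, -0.20 and 0.64. Medians were 0.00, 0.05 and -0.60 for the ATF4 list and -0.29, -0.31 and 0.24 for class II and IV deacetylases. For ribosome biogenesis they were 0.27, 0.22 and -0.23. With the block, which called 1.12% of all tested genes higher and 2.72% lower, a few members of these lists were called. Higher were Oasl1 and Oasl2 of the interferon list (block adjusted p = 0.0264 and 0.0445), the immediate-early genes Jun (0.0223) and Klf6 (0.0417), the cyclin-dependent kinase inhibitor gene Cdkn1c (0.0157), the apoptosome gene Apaf1 (0.03) and the p53 target Btg2 (0.028). Lower were the synaptic gene Arc (0.0367), the kinase inhibitor gene Cdkn2c (0.0263), the p53 target Trp53inp1 (0.0489), the lipid regulator gene Srebf1 (0.042) and the BMP antagonist gene Chrd (0.0348).

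**Figure D5:**
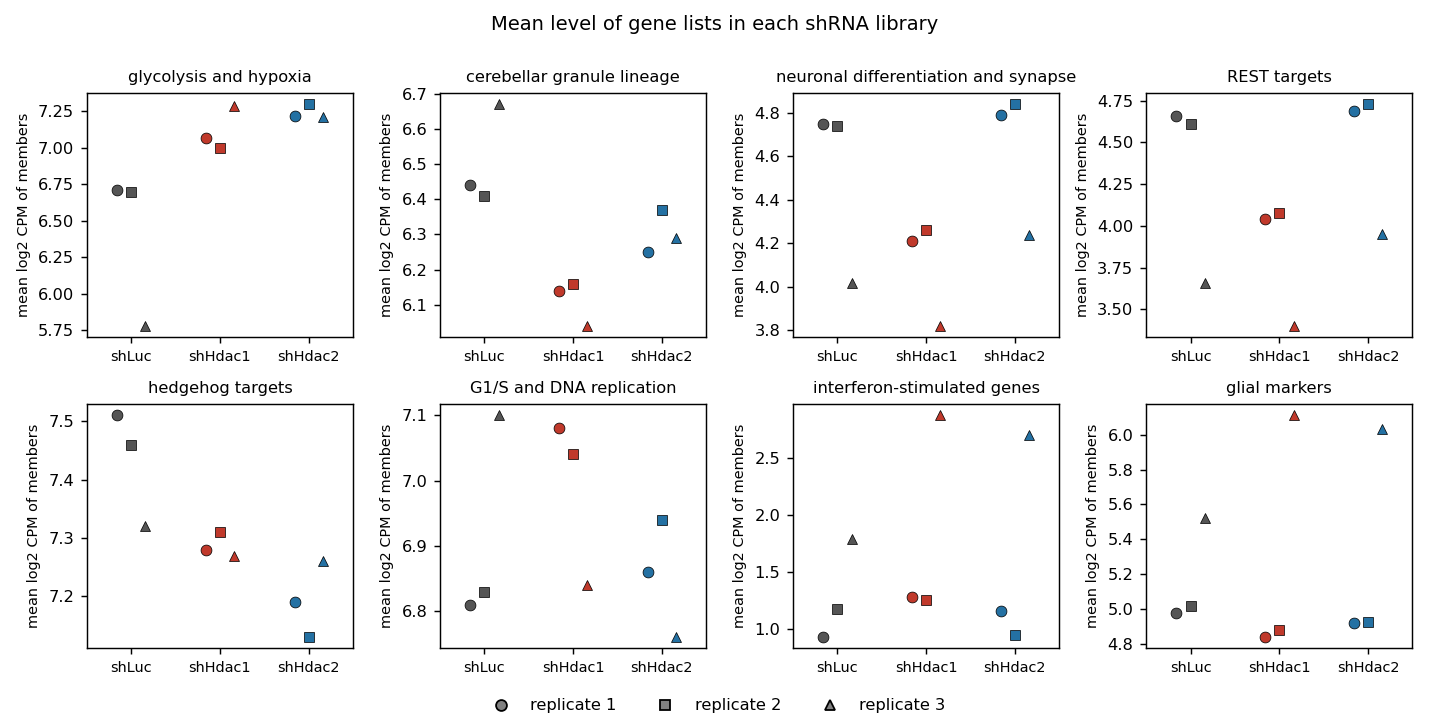
Mean log2 CPM of the tested members of 8 gene lists in each of the 9 shRNA libraries, each panel with its own axis that does not start at 0. Symbols are the replicate numbers. Replicate 3 lies apart in several panels. For the granule lineage all shHdac1 libraries (6.04 to 6.16) lie under all shLuc libraries (6.41 to 6.67), and for glycolysis all lie above (7.00 to 7.29 against 5.78 to 6.71). The shHdac2 libraries lie between the other groups for the granule lineage (6.25 to 6.37). For glycolysis they too lie above all shLuc libraries (7.21 to 7.30).

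Quisinostat inhibits deacetylases of several classes and is given beside the knockdown. JNJ for 24 h against DMSO for 24 h, which shares no library with the knockdown, called 18.1% of 14467 tested genes higher and 15.1% lower. Of the 21 genes that rose in the knockdown, 2 were higher with JNJ (9.52% of the 21, 0.0765% of the drug's list) and none was lower. They were Cyp1b1, a cytochrome gene, and Tacc1, a centrosomal protein gene, with drug log2 changes of 2.41 and 0.55. Of the 81 genes that fell, 10 were lower with JNJ (12.3%, 0.459% of the drug's list) and 15 were higher (18.5%, 0.574%). JNJ for 2 h called 9.11% of tested genes higher and 4.59% lower. At 2 h, 11 of the 81 were higher (13.6%, 0.835% of the drug's list) and none lower, and of the 21 that rose 1 was higher (4.76%, 0.0759%) and none lower. Cpne9 (drug log2 change -2.37, adjusted p = 0.00139), Dcx (-1.37, 0.00646) and Zic4 (-1.22, 0.000857) fell with the drug as well. Mapk8ip1 (0.60, 0.0171) and Dusp14 (0.85, 0.00407) rose with it. The REST targets had 15 of 25 higher and none lower with JNJ, while in the knockdown none was higher and 1 was lower. Among the hedgehog genes, Gli1 (-0.79, 0.0236), Ccnd1 (-1.42, 0.000908) and Atoh1 (-1.08, 0.00161) fell with the drug, and Cdkn1a (1.80, 0.00159) rose. Whether the drug and knockdown effects differ was not tested, since they come from separate fits.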

How the data were processed

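Per the labels' protocols, RNA from the RNeasy kit (500 ng) was made into TruSeq Stranded mRNA libraries and read as single-end 75 bp. The submitters' processing notes list STAR 2.5.1b and the build mm9. What the authors deposited is a table of whole read counts, with gene symbols as rows and libraries as columns. Not given in the sources used here: the counter, annotation, strand setting and handling of multiply matching reads. Values of paralogs and overlapping genes are therefore uncertain.

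Counts were tested with edgeR 4.0.16 in R 4.3.3 (filterByExpr with minimum count 10 and minimum total 15, TMM factors 0.961 to 1.03, group as the only term, quasi-likelihood, two-sided, Benjamini-Hochberg over all genes tested, common biological coefficient of variation 0.209) over the 9 shRNA libraries. The 12 JNJ and DMSO libraries had a fit of their own. CPM are on the scaled totals, standard errors are of the log2 change, and ratios per number use a prior count of 2. The steps were tested on simulated data in which no replicate stood apart, so that test does not bear on the replicate that did here. Alternatives were DESeq2 1.42.0, other scalings, no filter, a replicate block, fewer samples and leaving out libraries.

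The members and the 28 gene lists were chosen with earlier results of these data known. No list was tested as a set. The rule named the class I Hdac genes, 9 hedgehog, cell cycle and Hdac-response genes, the 12 called genes that changed most each way (mean of at least 5 CPM, no overlap, same sign at 3 numbers, placeholders passed over) and called list members, at most 4 a list. The replicate numbers were taken to pair libraries, since all 3 same-number correlations were over 0.1. Replicates 1 and 2 also correlated across numbers (0.322 for shLuc replicate 2 with shHdac1 replicate 1), so the number parts replicate 3 from the other two more than it pairs libraries.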

Additional observations from a re-analysis of the deposited data

How the results depend on the processing

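The counts of 21 higher and 81 lower depended on the libraries and the tool used. They stayed within 1.5 times with DESeq2's size factors, upper-quartile scaling, library totals and no filter (21 to 26 higher, 71 to 96 lower). They were 175 and 404 by DESeq2, 153 and 370 with the replicate block, 1 and 4 with the 2 groups alone, 0 and 0 with the replicate block in the 2 groups alone, and 2961 and 3084 without replicate 3 of all groups. The cause was not tested. Leaving out 1 library gave 0 to 602 higher and 2 to 910 lower. Hdac1 kept its log2 change (-1.68 to -1.58) and was called in all of these but the replicate block in the 2 groups alone (-1.63, adjusted p = 0.122), where fewer samples are fitted. No named gene that was called changed its sign in any setting, while the uncalled Hhip, H1f0, Gli1 and Hdac2 changed sign in some fits without 1 library (-0.13, -0.08, -0.01 and -0.02 at the lowest), and H1f0 was at -0.11 without replicate 3 of all groups. With 3 libraries a group of which 1 stands apart, small changes are not detectable here, and an uncalled gene is not shown to be unchanged.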
